A study of Homo sapiens with 6 samples.

Results

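The genes described here are the EGF family ligands AREG, EREG, HBEGF, TGFA, EGF, BTC, EPGN and NRG1, and ADAM17, the protease that releases most of them. They are 9 of the 63241 genes listed in the deposited expression files and were matched by symbol from their Ensembl identifiers. RNA-seq was performed on MDA-MB-231, a line of human triple-negative breast cancer (without hormone receptors or amplified HER2), after 24 h with 5 μM nitidine chloride (NCD, a benzophenanthridine alkaloid) or with 0.1% DMSO as the vehicle control. The DMSO content of the NCD cultures is not given in the sources used here. Each of the 2 groups held 3 libraries, all from the same wild-type line with no genetic change between groups. In the labels of NCD replicates 2 and 3 the description names another line number, whereas the cell line entry reads MDA-MB-231, and the entry was followed. No source used here says whether the libraries of a group came from separate cultures, so the p-values measure the spread between libraries, which may be technical. In bulk RNA, fewer cells of a type and less RNA per cell cannot be told apart.

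EGF family ligands are made as membrane-bound precursors, and proteases of the ADAM family cut off the active growth factor. The ligand then binds and pairs receptors of the ERBB family, which signal through the RAS-ERK and PI3K-AKT cascades. AREG, TGFA, EGF and EPGN bind EGFR. HBEGF, BTC and EREG bind EGFR and ERBB4, and NRG1 binds ERBB3 and ERBB4. ERBB2 binds no ligand and acts as the partner of the others. In basal-like breast cancer cells these ligands commonly act on the cells that make them.

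Library totals ran from 18223594 to 19410833 counts with DMSO and from 18232169 to 21629653 with NCD. Values are given as CPM, the counts per 1000000 after scaling by edgeR's TMM method. Fold changes and adjusted p-values come from edgeR's quasi-likelihood test over 15295 genes, with Benjamini-Hochberg adjustment over all of them. A gene was called where the adjusted p was below 0.05 and the absolute log2 fold change was above 1. The markers of the line were as labelled for VIM, at 2490 to 3160 CPM, and for ESR1, PGR and CDH1, at no more than 7 counts in any library. CD44 (261 to 998 CPM) and ZEB1 (7.40 to 108 CPM) were lower with NCD. ERBB2 was detected, at 35.2 to 62.6 CPM, and EPCAM was at 2.52 to 4.2 CPM. Of 8 markers of leukocytes, endothelium and fibroblasts, PTPRC, CD3E, CDH5, COL3A1 and PDGFRA had at most 7 counts per library, PECAM1 at most 21, CD68 had 81.1 to 95.3 CPM and COL1A1, higher with NCD, 2.32 to 14.8 CPM.

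The ligands moved in opposite directions with NCD. AREG, EREG and BTC were higher, and NRG1, TGFA and HBEGF were lower, as was the sheddase ADAM17. NRG1 showed the largest difference among them (7.48-fold lower) and AREG the largest rise (2.72-fold). EGF was close to the limit of detection and EPGN was not detected. By the call rule 1 of the 8 tested genes was higher (AREG) and 2 were lower (TGFA and NRG1). Over all tested genes, 31.0% were called, 13.5% higher and 17.5% lower. By adjusted p alone 3 were higher and 4 lower, where 69.3% of all tested genes passed, 35.3% higher and 34.1% lower. The CPM of the groups did not overlap in any of the 8, with NCD above in 3 and below in 5. Over all tested genes 72.6% did not overlap, 37.2% with NCD above and 35.3% with NCD below. EGF was above the low-count limit of the filter in 3 DMSO and 2 NCD libraries, where 3 are needed, so its NCD libraries alone would not have passed it and its place in these counts is not evidence of a fall. These shares describe a treatment that moved most tested genes, and nothing particular to the ligands is read from them.

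**Figure D1:**
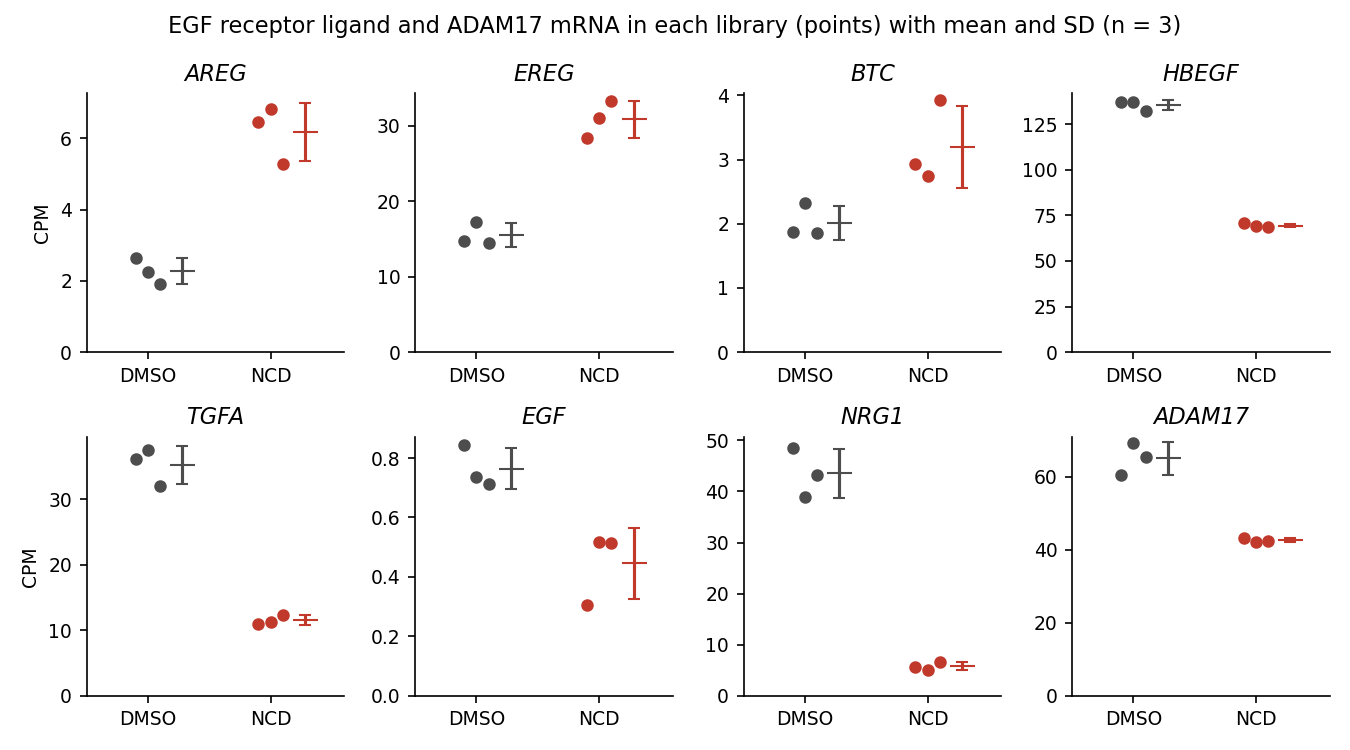
Level of each detected ligand gene and of ADAM17 (y axis, CPM from 0; x axis, treatment). Points are single libraries and the bars beside them the mean and SD (n = 3 per group). AREG, EREG and BTC lie higher with NCD, the other 5 genes lie lower, and no gene has overlapping groups.

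AREG encodes amphiregulin, a low-affinity EGFR ligand with a heparin-binding stretch. Its counts were 44, 40 and 35 under DMSO and 148, 132 and 113 under NCD. All NCD libraries lay well above all DMSO libraries. In CPM the DMSO mean was 2.28 ± 0.367 and the NCD mean 6.19 ± 0.817 (SD, n = 3 each). AREG rose with a log2 fold change of 1.44 (SE 0.18, adjusted p = 9.6e-05, edgeR).

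EREG encodes epiregulin, a ligand with broad ERBB binding that is often expressed together with AREG. It had 14.7, 17.3 and 14.4 CPM with DMSO and 28.3, 31.0 and 33.2 CPM with NCD. Its groups were clearly apart, with every NCD library above every DMSO library. The log2 fold change was 1.00 (SE 0.10, adjusted p = 2.53e-05, edgeR), a 1.99-fold rise. This is just under the fold threshold, so EREG passed the test but was not called. It was called with library totals in place of TMM (log2 fold change 1.19), and without DMSO replicate 2 or NCD replicate 1 (1.07 and 1.03).

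BTC encodes betacellulin, a ligand first known from beta-cell tumours. Counts were low, at 31, 41 and 34 under DMSO and 67, 53 and 84 under NCD. The NCD libraries varied more, but the lowest was above the highest DMSO library also in CPM, at 2.74 against 2.32. The log2 fold change was 0.66 (SE 0.21, adjusted p = 0.0208, edgeR). The pass depended on few counts: the adjusted p was 0.0569 with DESeq2, in a range of 0.00746 to 0.0569 over 7 alternatives. It was 0.0693 without DMSO replicate 1, 0.0807 without DMSO replicate 3 and 0.0827 without NCD replicate 3, where the log2 fold change was 0.47 (edgeR).

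EPGN encodes epigen, a low-affinity ligand of EGFR. It had 0 counts in all 6 libraries. A count of 0 allows up to 3 counts per library, which is 0.131 to 0.181 CPM here, for counting error only.

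EPGN, EREG, AREG and BTC lie side by side on chromosome 4 (GRCh38, GENCODE release 29). EPGN spans 74308473 to 74315307, EREG 74365143 to 74388751 and AREG 74445134 to 74455009, all on the plus strand. BTC spans 74744759 to 74794686 on the minus strand. The window of 486.2 kb over these 4 genes holds no other protein-coding gene, and the 2 antisense genes in it had 0 counts in every library. The 3 genes that could be tested in the window were thus ligands, and each was higher with NCD. The nearest tested gene on either side was lower. MTHFD2L, a mitochondrial folate enzyme 5.37 kb before the window, fell by 1.09 on the log2 scale (SE 0.09, adjusted p = 7.88e-06, edgeR). PARM1, which lies 138 kb after the window, had 8.98, 8.88 and 9.54 CPM with DMSO and 3.63, 3.10 and 3.59 CPM with NCD. Its log2 fold change was -1.40 (SE 0.13, adjusted p = 1.11e-05, edgeR). Both neighbours were added after their values were seen. Gene span, with which the fold change moved over the tested genes (described below), was not compared here, so nothing particular to the window is read from this contrast.

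The sequences below are the 250 bases before the RefSeq transcription start (GRCh38.p14) of the neighbouring ligand genes that rose most, AREG and EREG, and of HBEGF, the ligand with the most counts. They are shown because AREG and EREG moved together and HBEGF moved the other way. AREG is at chr4:74444886-74445135 (plus strand), EREG at chr4:74364895-74365144 (plus strand) and HBEGF at chr5:140346604-140346853 (minus strand), each written 5′ to 3′ along its gene. Capitals mark matches to the cAMP response element TGACGTCA, the AP-1 site TGANTCA, the ATF4-C/EBP element TGATGNAA and the SP1 site GGGCGG on either strand.
AREG: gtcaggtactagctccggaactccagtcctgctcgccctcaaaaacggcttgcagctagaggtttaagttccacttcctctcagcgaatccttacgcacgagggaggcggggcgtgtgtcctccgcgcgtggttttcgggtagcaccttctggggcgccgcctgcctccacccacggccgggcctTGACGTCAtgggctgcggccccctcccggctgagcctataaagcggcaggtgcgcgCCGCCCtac
EREG: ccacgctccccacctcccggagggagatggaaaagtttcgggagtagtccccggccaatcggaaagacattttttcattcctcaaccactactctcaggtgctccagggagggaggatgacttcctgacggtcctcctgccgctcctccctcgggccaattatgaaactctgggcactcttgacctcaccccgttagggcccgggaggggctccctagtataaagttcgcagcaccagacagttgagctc
HBEGF: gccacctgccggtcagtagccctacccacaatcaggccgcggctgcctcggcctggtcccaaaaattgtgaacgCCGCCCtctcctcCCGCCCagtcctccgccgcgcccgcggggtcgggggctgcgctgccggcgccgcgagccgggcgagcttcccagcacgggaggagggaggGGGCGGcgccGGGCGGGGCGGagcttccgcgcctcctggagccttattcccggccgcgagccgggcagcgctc
AREG held 1 full cAMP response element, starting 65 bases before the start, and 1 SP1 match in reverse. Of 35116 promoter windows of this length, 1.65% held TGACGTCA, 6.57% TGANTCA, 3.14% TGATGNAA and 42.6% GGGCGG. EREG held none of these letters, and neither did the window of BTC. HBEGF held 5 SP1 matches, of which the last 2 overlap by 1 base, and no other match. Of the 8 genes with a promoter window, no other one held the cAMP response element. EGF alone held an AP-1 match, at 17 bases before its start. The SP1 site was also matched 3 times each in ADAM17 and the first TGFA window, and not in the second TGFA window, EGF or EPGN. Under this search, a match describes the letters in this window and not a bound site.

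HBEGF encodes heparin-binding EGF-like growth factor (chromosome 5, 140332843 to 140346631, minus strand). It had the most counts of any member, 2277, 2430 and 2408 with DMSO and 1613, 1336 and 1469 with NCD. On the CPM scale the DMSO libraries lay at 137, 137 and 132 and the NCD libraries at 70.5, 69.1 and 68.5, so the spread within each group was small beside the gap. The log2 fold change was -0.97 (SE 0.05, adjusted p = 5.61e-07, edgeR). HBEGF therefore fell 1.95-fold without being called, since it lay just inside the fold threshold. It was called without DMSO replicate 3 (log2 fold change -1.02) and without NCD replicate 1 (-1.0).

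TGFA encodes transforming growth factor alpha, a high-affinity EGFR ligand (chromosome 2, 70447280 to 70554193, minus strand). It had 36.2, 37.6 and 32 CPM with DMSO and 11, 11.2 and 12.4 CPM with NCD. Every NCD library was lower than every DMSO library by a wide margin. TGFA fell 3.06-fold, with a log2 fold change of -1.62 (SE 0.10, adjusted p = 7.86e-07, edgeR).

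EGF, the founding ligand of the family (chromosome 4, 109912884 to 110012266, plus strand), was counted 14, 13 and 13 times under DMSO and 7, 10 and 11 times under NCD. At this depth the difference could not be shown (log2 fold change -0.78, SE 0.34, adjusted p = 0.0668, edgeR). The adjusted p lay between 0.0584 and 0.228 over 6 alternatives.

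NRG1 encodes neuregulin 1, the ligand of ERBB3 and ERBB4, in many isoforms that gene-level counts add up. It had 48.5, 39.0 and 43.2 CPM with DMSO and 5.64, 5.12 and 6.67 CPM with NCD. The groups were far apart in relation to their spread. The mean went from 43.6 CPM (SD 4.77, n = 3) down to 5.81 CPM (SD 0.787, n = 3), which is a log2 fold change of -2.90 (SE 0.13, adjusted p = 1.22e-07, edgeR).

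ADAM17, also known as TACE, sheds AREG, EREG, HBEGF, TGFA and EPGN from the cell surface (chromosome 2, 9488486 to 9556732, minus strand). It had 60.4, 69.3 and 65.4 CPM with DMSO and 43.3, 42.1 and 42.4 CPM with NCD. All NCD libraries were lower, and they differed little from each other. ADAM17 fell 1.53-fold, with a log2 fold change of -0.61 (SE 0.07, adjusted p = 6.08e-05, edgeR), and was not called. IAH1 overlaps ADAM17 on the opposite strand and had up to 1152 counts in a library, and the sources used here do not say whether strand was used in counting. IAH1 itself had a log2 fold change of -0.28 (SE 0.09, adjusted p = 0.0173, edgeR), and its part in the result for ADAM17 was not tested.

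**Figure D2:**
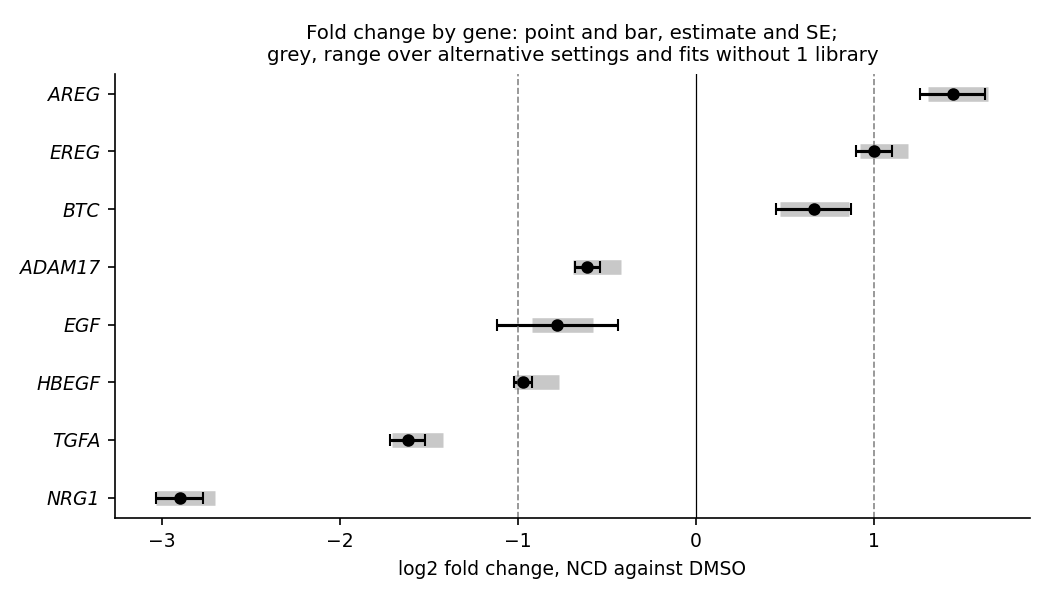
Log2 fold change of NCD against DMSO (x axis) for the 8 tested genes (y axis). Points and black bars give the edgeR estimate and its SE, grey bars the range over the other settings and the fits without 1 library, and dashed lines the fold threshold. EREG at 1.00 and HBEGF at -0.97 sit on the threshold lines, while AREG, TGFA and NRG1 stay beyond them.

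Levels can be compared between genes only per length, so counts were divided by the exon length of each gene and scaled to 1000000 per library (TPM). With DMSO the order was HBEGF (135 ± 7.92 TPM), TGFA (21.3 ± 2.40), ADAM17 (18.2 ± 2.14), NRG1 (11.5 ± 0.695), EREG (8.13 ± 1.21), AREG (4.13 ± 0.591), BTC (2.16 ± 0.387) and EGF (0.373 ± 0.0241), each as mean ± SD in TPM with n = 3. In this order only TGFA and ADAM17 were neighbours with overlapping ranges. With NCD HBEGF stayed first, at 78.0 ± 2.39 TPM (SD, n = 3), and EREG came next, at 18.4 ± 2.12 TPM. ADAM17 (13.5 ± 0.518 TPM) and AREG (12.7 ± 1.22 TPM) overlapped. TGFA (7.88 ± 0.837), BTC (3.87 ± 0.932), NRG1 (1.75 ± 0.308) and EGF (0.248 ± 0.0716 TPM) followed, with no overlap between neighbours. Parts of both orders depend on the length used. With the median transcript length in place of the exon length, NRG1 (30.1 TPM) lay above ADAM17 (19.9 TPM) with DMSO, and EGF (1.04 TPM) and BTC (1.02 TPM) overlapped. With NCD, TGFA (14.1 TPM) then lay above AREG (6.41 TPM) and overlapped ADAM17 (14.9 TPM), and NRG1 (4.61 TPM) lay above BTC (1.85 TPM). HBEGF stayed first in both groups and EREG next to it with NCD by either length.

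The make-up of the ligand mRNA pool also differed between the groups. As a share of the summed TPM of the ligands within a library, which no scaling between libraries can alter, AREG was 2.27% ± 0.305 (SD, n = 3) with DMSO and 10.4% ± 1.38 with NCD. EREG was 4.45% ± 0.382 and 14.9% ± 1.14 (SD, n = 3). The shares of both were higher in each NCD library than in any DMSO library. TGFA went from 11.7% ± 0.609 to 6.40% ± 0.403 (SD, n = 3) and NRG1 from 6.33% ± 0.694 to 1.42% ± 0.191. HBEGF was the largest part in both groups, at 73.9% ± 0.799 and 63.5% ± 1.15 (SD, n = 3). With the median transcript length the shares themselves moved, to 1.16% and 6.0% for AREG, 5.84% and 22.1% for EREG, 21.1% and 13.1% for TGFA and 17.0% and 4.29% for NRG1, with the same directions. Those of HBEGF were then 53.7% and 52.2% with overlapping ranges, so a lower share of HBEGF depends on the length used. The summed level was 182 ± 11.5 TPM with DMSO and 123 ± 5.17 TPM with NCD (SD, n = 3). TPM is scaled within each library, without the TMM factors, so these sums are not on the scale of the fold changes. These shares were not tested, since the genes were chosen with their changes known.

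**Figure D3:**
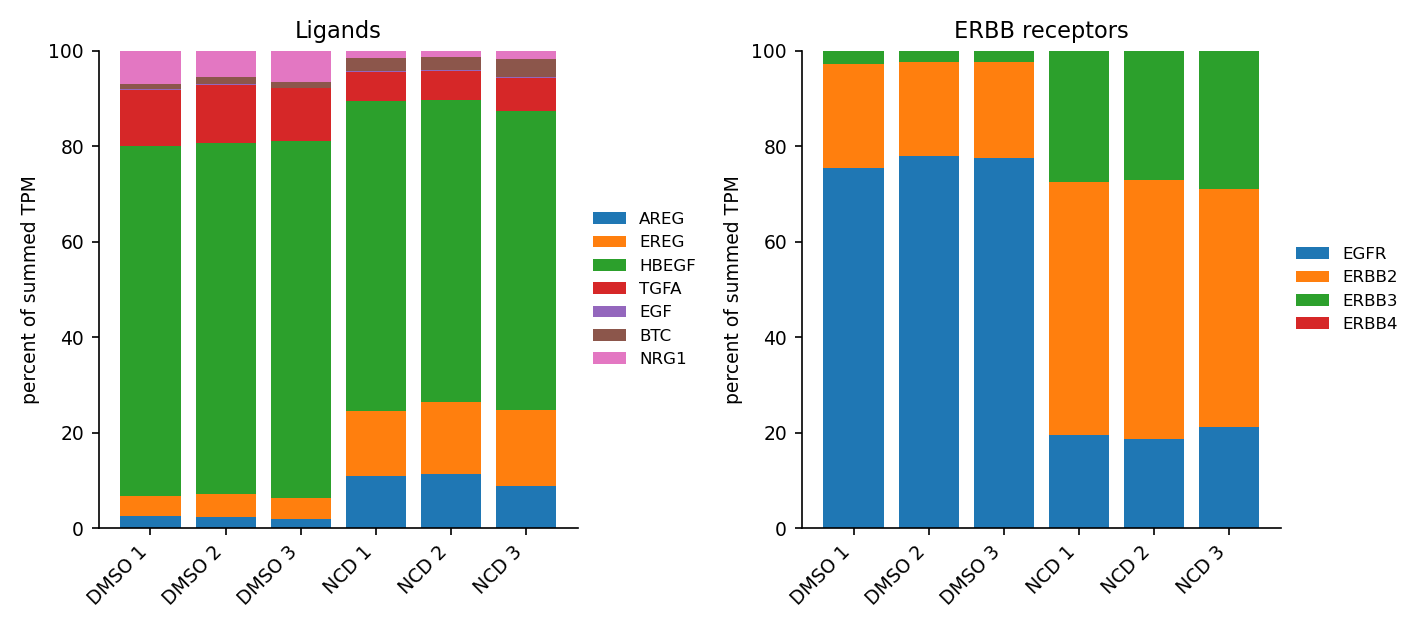
Share of each gene in the summed TPM (y axis, percent) of the detected ligands, left, and of the ERBB receptors, right, in each library (x axis). AREG and EREG take larger parts of the ligand bars with NCD, and ERBB2 and ERBB3 replace most of the EGFR part of the receptor bars.

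The receptors of these ligands also changed, and in different directions. EGFR, the receptor for most of the ligands here, had 161, 183 and 165 CPM with DMSO and 27.4, 26.1 and 30.1 CPM with NCD, a 6.09-fold fall (log2 fold change -2.61, SE 0.08, adjusted p = 2.65e-08, edgeR). ERBB3, which binds NRG1, had 4.22, 4.02 and 3.78 CPM with DMSO and 28, 27.2 and 29.7 CPM with NCD. Its change was a log2 fold change of 2.82 (SE 0.10, adjusted p = 4.37e-08, edgeR), the largest rise of a receptor. Its ligand gene NRG1 was lower in the same libraries. Over all tested genes 35.3% were higher and 34.1% lower by adjusted p alone, and a link between ERBB3 and NRG1 was not tested. ERBB2 rose by less than ERBB3, with a log2 fold change of 0.71 (SE 0.07, adjusted p = 1.92e-05, edgeR), and was not called. ERBB4 was counted 3, 2 and 1 times under DMSO and never under NCD, too few to test. Per length, EGFR made up 76.9% ± 1.38 (SD, n = 3) of the receptor TPM with DMSO and 19.7% ± 1.31 with NCD. ERBB2 was 20.5% ± 1.17 and 52.5% ± 2.36 (SD, n = 3), and ERBB3 2.52% ± 0.190 and 27.8% ± 1.06. Of the other neuregulins, NRG2 fell (log2 fold change -2.59, SE 0.35, adjusted p = 0.000159, edgeR), NRG3 had 0 counts and NRG4 was below the filter.

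The wider pathway was described by 8 lists of 74 genes in all, of which 70 were tested. By the call rule 25 were lower (35.7%) and 4 higher (5.71%), against 17.5% and 13.5% of all tested genes, and the median log2 fold change was -0.73 against 0.04. With at least 10 counts required in every library, 23 were called lower and 4 higher. Of the 10 sheddases and their regulators 6 were called lower and 0 higher, while by adjusted p alone 7 were lower and 3 higher (ADAM15 at 0.43, FRMD8 and RHBDF1). ADAM10, which sheds BTC and EGF, fell from 213 ± 20.7 to 31.6 ± 3.78 CPM (SD, n = 3). Its log2 fold change of -2.75 (SE 0.10, adjusted p = 6.12e-08, edgeR) was larger in size than that of ADAM17, a difference that was not tested. ADAM9 and ADAM8 were also called, at log2 fold changes of -1.62 and -1.30, and so was TIMP3, an inhibitor of ADAM17, at -1.31. The partners that carry ADAM17 to the cell surface did not pass the fold threshold: RHBDF1 was at 0.31, RHBDF2 at -0.43 and FRMD8 at 0.73 on the log2 scale, each with an adjusted p below 0.05.

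The smaller lists are described by their counts, beside the 17.5% of all tested genes called lower and the 13.5% called higher, and nothing particular to a list is read from them. Among receptor inhibitors 3 of 9 tested genes were called lower and 1 higher. ERRFI1 (MIG6), which blocks the EGFR kinase and is itself induced by EGFR signalling, had a log2 fold change of -1.66. LRIG1, which marks EGFR for degradation, was at -2.32, and RNF41 (NRDP1), which does so for ERBB3, was at 1.43. Of 12 adaptors 4 were called lower and 0 higher, with RASA1, which switches RAS off, at -3.36, GAB2 at -2.43 and NCK1 at -1.08. Of 10 RAS-ERK genes 3 were called, all lower, among them BRAF at -3.0 and MAP2K1 (MEK1) at -1.16. Of 8 PI3K-AKT genes 4 were called lower, with PIK3CB at -2.21 and AKT2 at -1.13. By adjusted p alone, 5 receptor inhibitors were lower and 1 higher, and 8 adaptors were lower and 4 higher. Of the RAS-ERK genes 4 were lower and 3 higher, with a median log2 fold change of 0.14. Of the PI3K-AKT genes 7 were lower and 0 higher. Over all tested genes 34.1% were lower and 35.3% higher by adjusted p alone.

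Of 17 genes that ERK signalling induces, 2 were called higher (11.8%) and 3 lower (17.6%), close to the 13.5% and 17.5% of all tested genes. By adjusted p alone 13 were lower and 4 higher, where 34.1% and 35.3% of all tested genes were. EGR1, an immediate early gene, rose from 1.83 ± 0.135 to 20.9 ± 0.307 CPM (SD, n = 3), a log2 fold change of 3.51 (SE 0.11, adjusted p = 3.03e-08, edgeR). The other called rise was that of FOS, at 2.39. SPRED1, a brake on RAS, was at -1.69 and FOSL1 at -1.15. The ERK targets had a median of -0.58 (log2 fold change), beside 0.04 for all tested genes.

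**Figure D4:**
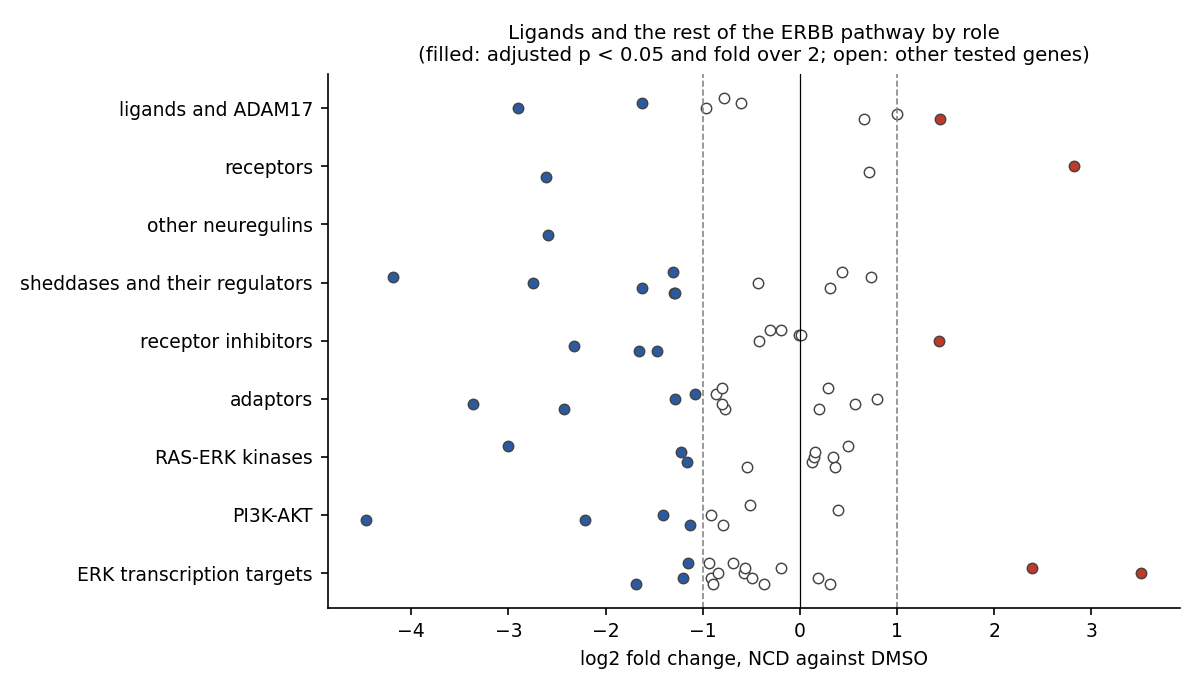
Log2 fold change of NCD against DMSO (x axis) for the tested ligand genes, ADAM17 and the pathway lists (y axis), 1 point per gene. Filled points passed both thresholds and open points did not. The filled points lie mostly on the lower side, with AREG, ERBB3, RNF41, FOS and EGR1 on the higher side.

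Gene span moved with the fold change over the tested genes that have an annotation in GENCODE release 29. The median log2 fold change was 0.37 for 5867 genes under 20 kb, 0.01 for 6210 genes of 20 to 100 kb and -1.46 for 2615 genes over 100 kb, of which 67.0% were called lower. NRG1 (1129 kb) and TGFA (107 kb), both called lower, are the 2 members in the longest class. AREG (9.88 kb), HBEGF (13.8 kb) and EPGN (6.84 kb) are in the shortest, where 21.0% of genes were called higher and 4.91% lower. HBEGF, at -0.97, thus lay on the other side of 0 from the median of its class. EREG (23.6 kb), BTC (49.9 kb), ADAM17 (68.2 kb) and EGF (99.4 kb) are in the middle class. Of the tested receptors, EGFR (192.6 kb) is in the longest class, and ERBB2 (42.51 kb) and ERBB3 (26.71 kb) are in the middle class. In the pathway lists, 19 of the 25 genes called lower were among the 22 tested genes over 100 kb, and none of those 22 was called higher. The part of span in these results was not tested.

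**Figure D5:**
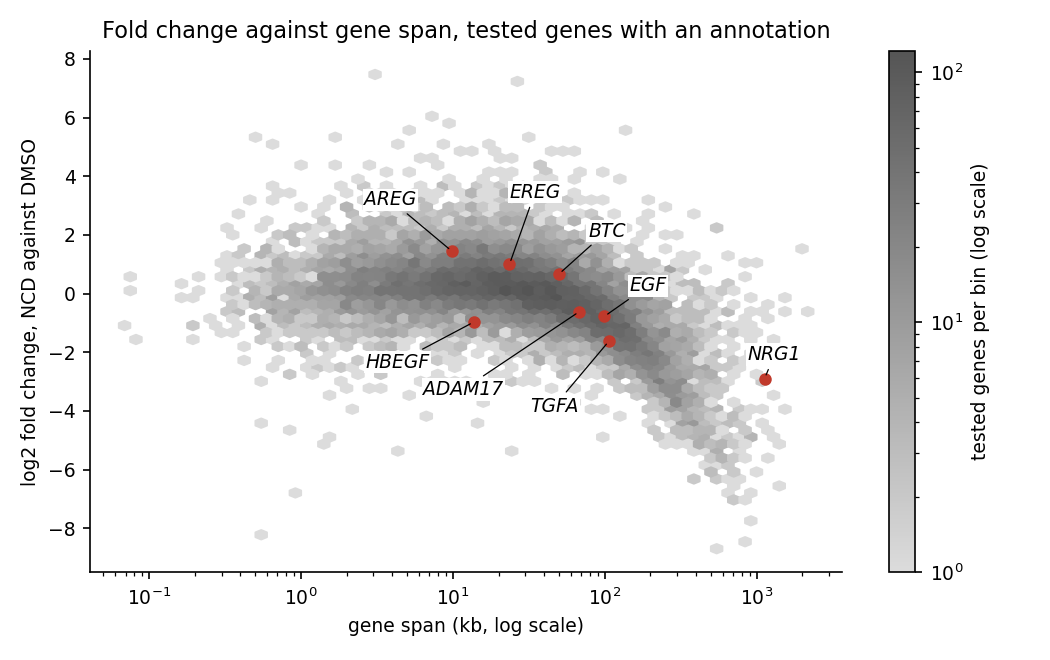
Log2 fold change of NCD against DMSO (y axis) against gene span (x axis, kb, log scale) for all tested genes with an annotation. Grey shading counts genes per bin on a log scale and red points are the 8 tested members. NRG1 and TGFA lie among the long genes, whose median is -1.46, while HBEGF, at 13.8 kb and -0.97, lies below the median of 0.37 of genes under 20 kb.

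HBEGF had the highest mean CPM of the members, and the genes whose pattern lay nearest to it over the 6 libraries were HNRNPD, DIAPH1 and TEX10. The distance between centred log2 values was 0.032, 0.0416 and 0.0476. HNRNPD, an RNA-binding protein that acts on AU-rich transcripts, had 589 ± 6.41 CPM with DMSO and 301 ± 4.27 CPM with NCD (SD, n = 3), a log2 fold change of -0.97. DIAPH1, a formin, was at -0.96 and TEX10 at -0.97. With 2 groups, such a distance mainly reflects a like fold change.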

How the data were processed

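Values deposited by the authors are expected counts per Ensembl gene from RSEM, after alignment with HISAT2, not normalized and with 1 library per file. The submitters' processing notes name GRCh38. Versions, annotation release and strandedness are not given in the sources used here. Each file held 25 lines of stray annotation text with no count, which were skipped. Symbols matched 62666 of 63241 identifiers. Gene span, exon length and coordinates came from GENCODE release 29 (58228 identifiers), and promoter sequences from RefSeq (GRCh38.p14), where 8 of the 9 members matched.

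Expected counts were rounded and tested with edgeR 4.0.16 (R 4.3.3): filterByExpr, TMM (factors 0.911 to 0.949 with DMSO and 1.06 to 1.09 with NCD), glmQLFit and glmQLFTest, with all 6 libraries and no covariate. The SE was derived from the fold change and the F statistic. On simulated counts over 15042 genes, 187 of 189 changed genes were recovered (98.9%), with 1 false call. In that simulation few genes changed, each by more than the fold threshold, and the same dispersion was set for every gene. In the data 69.3% of tested genes passed the adjusted p, so these figures do not give the accuracy of the real comparison. TPM used union exon length. Libraries of 1 group differed by more than sampling noise in each pair (chi-square per degree of freedom at least 2.06). Likeness to HBEGF was the Euclidean distance of log2(CPM + 0.5).

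Named genes are the members, the receptors, up to 3 called genes with the smallest p per pathway list and the 3 genes nearest to HBEGF. TIMP3, RHBDF1, RHBDF2, FRMD8, ADAM12, ADAM15, FOS, IAH1 and the neighbours on chromosome 4 were added after their values were seen. Values of a few such genes are left out here. The members and lists were chosen with earlier results of these data known. Alternatives were DESeq2 1.42.0, limma-voom (limma 3.58.1), other scalings, filters and thresholds, a replicate block and each library left out. A planned search of protein sequences was not run. Limits cover counting error only.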

Additional observations from a re-analysis of the deposited data

How the results depend on the processing

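AREG, TGFA and NRG1 kept their direction and their call, and EREG, HBEGF and ADAM17 their direction and an adjusted p below 0.05, under all 7 other fits (DESeq2, limma-voom, library totals, median-ratio size factors, no filter, at least 10 counts in every library, replicate block) and in all 6 fits without 1 library. The number of members called ranged from 3 to 5 without each library (5 without NCD replicate 1) and the number called higher from 1 to 2. The log2 fold change of EREG then ranged from 0.92 to 1.07 and that of HBEGF from -1.02 to -0.96. With library totals 2 members were called higher, since EREG moved to 1.19. Library totals raised the median log2 fold change of all genes by 0.20, and 56.2% of called genes were higher, against 43.6% with TMM. Without a fold threshold 7 members (3 higher, 4 lower), 63 pathway genes (17 higher, 46 lower) and 10602 of all genes (5393 higher, 5209 lower) counted, by construction. With at least 10 counts in every library 1376 genes were called higher, against 2067, since fewer genes are tested, and EGF could not be tested. With the median transcript length the share of HBEGF in the ligand TPM was 53.7% with DMSO and 52.2% with NCD.

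For libraries with the same replicate number, deviations from the group means had correlations of 0.314, -0.27 and 0.0252, which differ in sign. Libraries with unlike numbers were not compared, so these values cannot settle whether the numbers mark a pairing. Under a replicate block 4723 genes were called, against 4736, and 3 members, with log2 fold changes of 1.44 for AREG, -1.61 for TGFA and -2.91 for NRG1. Depth limits EGF, BTC and EPGN, which had at most 84 counts in a library.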
